A study of Mus musculus with 6 samples.

Results

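Costimulatory receptors of T cells were followed at the level of open chromatin, through 10 genes: Cd28, Icos, Cd27, Tnfrsf4, Tnfrsf9, Tnfrsf18, Cd40lg, Cd2, Slamf6 and Cd226. A called peak belonged to a gene where its summit lay inside the body of that gene, or within 100 kb of it with no other of the 21887 protein-coding genes of the mm10 annotation nearer. Peaks of 6 ATAC-seq libraries were joined into 134174 regions wherever they overlapped, and 265 of these regions belonged to the 10 genes. ATAC-seq marks open chromatin by the insertion of sequencing adapters with a transposase.

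T cells need a costimulatory signal beside that of the antigen receptor to divide, survive and secrete cytokines. CD28 gives it in resting cells, whereas many of the TNF receptor family members and ICOS are known to be induced after activation. Receptors of the TNF receptor family signal through TRAF adaptors to NF-kappaB, CD28 and ICOS through PI3 kinase, and SLAMF6 through the adaptor SAP. Cd40lg is the exception among the 10, since it encodes a ligand, which binds CD40 on B cells and antigen-presenting cells.

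The Res-shFabp7 group held 3 libraries of mouse CD8+ T cells cultured with PD-1-resistant lung adenocarcinoma cells that carried a hairpin against Fabp7, a fatty acid binding protein. The Res-ctrl group held 3 libraries of CD8+ T cells cultured with the control line of the same resistant tumour cells. In both groups the T cells came from spleen by depletion of other cells. They were activated with anti-CD3 at 5 µg/mL and anti-CD28 at 1 µg/mL, so that the product of one of the 10 genes was engaged by antibody in every culture, and libraries were made after 48 h. A porous membrane kept tumour cells and T cells apart. Since the knockdown was made in tumour cells, nothing in the T cell data checks it. The labels call the libraries biological replicates. The sources used here give neither strain, sex and age of the mice, nor the number of mice per library, nor that of hairpins or tumour clones. The comparison asked how the tumour cells' Fabp7 status bore on the open chromatin of the T cells.

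The libraries differed in how many peaks were called. The lists held 100243 to 105796 peaks with Res-shFabp7, against 82153 to 96310 with Res-ctrl. The most frequent background level of a list, a relative measure of depth, was 0.868 to 1.03 with Res-shFabp7, against 0.608 to 1.01 with Res-ctrl, lowest in Res-ctrl replicates 1 and 2. Depth and group therefore could not be told apart for weak peaks, and a missing peak is not missing accessibility. All 10 CD8 T cell marker genes, among them Cd8a, Cd3e and Lck, had a region in all 6 libraries. Open chromatin was also called at markers of other cells. Among 6 B cell markers, 5 carried a region (4 of these in every library, none at Ms4a1). Among 6 epithelial tumour markers, 4 did (2 of these in every library, none at Krt8 and Sftpc). Each of 5 CD4 and regulatory T cell, 6 myeloid and 5 natural killer cell markers carried one, shared by every library at 5, 5 and 3. Of all protein-coding genes, 65.3% had at least 1 region shared by every library. Such counts therefore show neither presence nor absence of other cells. A mixture of cells and a change within each cell cannot be told apart in these bulk libraries.

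The gene starts of the TNF receptor family members are shown first, because Tnfrsf9 has 2 annotated starts of which only the second carried a peak. Promoter sequences were held by the reference for 5 of the 10 genes. Each sequence below is RefSeq, GRCm38.p6, from 250 bases before to 50 bases after an annotated gene start, written 5′ to 3′ along the gene. Capitals mark matches on either strand to any of 8 motifs: AP-1 (TGANTCA), Runx (TGTGGT), NFAT (TGGAAA), ETS (GGAAGT), the GC box (GGGCGG), the CCAAT box (CCAAT), the TATA box (TATAAA) and NF-kappaB (its 10-base consensus). The first Tnfrsf9 start lies at chr4:150919905-150920204 (plus strand) and the second at chr4:150927749-150928048 (plus strand). Tnfrsf4 lies at chr4:156013445-156013744 (plus strand), Tnfrsf18 at chr4:156026072-156026371 (plus strand) and Cd27 at chr6:125236978-125237277 (minus strand).
Tnfrsf9, first start: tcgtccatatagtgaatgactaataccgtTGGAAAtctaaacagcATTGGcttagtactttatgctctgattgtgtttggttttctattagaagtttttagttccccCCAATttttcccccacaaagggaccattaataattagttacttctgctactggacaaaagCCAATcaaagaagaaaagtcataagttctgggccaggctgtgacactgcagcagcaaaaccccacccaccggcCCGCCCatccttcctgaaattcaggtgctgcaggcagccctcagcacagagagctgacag
Tnfrsf9, second start: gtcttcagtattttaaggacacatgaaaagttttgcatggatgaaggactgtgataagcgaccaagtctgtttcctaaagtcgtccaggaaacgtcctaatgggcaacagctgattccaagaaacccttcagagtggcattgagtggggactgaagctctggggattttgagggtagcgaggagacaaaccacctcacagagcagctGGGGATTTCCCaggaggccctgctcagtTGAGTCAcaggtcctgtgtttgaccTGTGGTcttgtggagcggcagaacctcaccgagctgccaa
Tnfrsf4: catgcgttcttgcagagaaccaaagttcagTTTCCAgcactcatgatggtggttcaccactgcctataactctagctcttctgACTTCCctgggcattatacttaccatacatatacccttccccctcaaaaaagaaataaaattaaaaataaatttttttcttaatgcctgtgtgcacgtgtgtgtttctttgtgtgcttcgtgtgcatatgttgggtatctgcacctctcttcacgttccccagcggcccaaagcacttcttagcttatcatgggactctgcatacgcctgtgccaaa
Tnfrsf18: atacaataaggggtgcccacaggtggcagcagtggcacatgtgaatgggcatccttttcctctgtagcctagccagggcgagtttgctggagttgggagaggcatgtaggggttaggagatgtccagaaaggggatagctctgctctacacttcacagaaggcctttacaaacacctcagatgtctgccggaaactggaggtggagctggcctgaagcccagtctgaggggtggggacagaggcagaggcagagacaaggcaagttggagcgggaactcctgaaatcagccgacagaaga
Cd27: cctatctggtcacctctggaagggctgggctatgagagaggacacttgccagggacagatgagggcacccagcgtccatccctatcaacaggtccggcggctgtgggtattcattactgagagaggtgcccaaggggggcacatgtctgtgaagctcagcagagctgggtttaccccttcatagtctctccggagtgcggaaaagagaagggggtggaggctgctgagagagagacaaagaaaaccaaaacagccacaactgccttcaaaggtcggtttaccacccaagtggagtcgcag

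No library had a peak on the sequence of the first Tnfrsf9 start, and all 6 had one on the second. The authors' fold is the ratio of the peak summit to its local background, with 1 added to both. The added 1 lowers the fold more where the background is lower. The most frequent background was lowest in Res-ctrl replicates 1 and 2. At the second start the fold was 6.88, 7.54 and 7.56 with Res-shFabp7, against 6.85, 5.52 and 8.28 with Res-ctrl. The groups overlapped. Summits there lay 30, 30 and 87 bases before the gene start with Res-shFabp7, against 78, 77 and 29 bases before it with Res-ctrl. Counted from the gene start as base 1, with the base before it as −1, the capitals of the second start are 2 overlapping NF-kappaB matches from −43 and −42, the AP-1 match from −15 and the Runx match from 11. Of all 32851 promoter sequences of the same length, 8.46% held the NF-kappaB motif, 7.81% the AP-1 motif and 16.8% the Runx motif. The region nearest the first start began 1155 bp downstream of it. That start, without a peak, held NFAT at −221, the CCAAT box at −205, −143 and −83 and the GC box at −10, motifs found in 21.4%, 37.4% and 35.7% of promoters. Tnfrsf4 held NFAT from −220 and ETS from −167, and the ETS motif was present in 23.8% of promoters. The Tnfrsf18 and Cd27 sequences held none of the 8 motifs, yet both carried a peak in all 6 libraries, as did Tnfrsf4. A motif match is a run of letters and not an observed binding site.

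The 10 genes lie in densely open chromatin. Their territories held 3.11 regions per 10 kb over 853 kb, against 0.668 per 10 kb within 100 kb of any protein-coding gene. Of the 265 regions, 124 (46.8%) had a peak in all 6 libraries, against 42.2% of all regions. A peak in a single library made 53 regions (20%, against 23.3% of all regions). Median region length was 197 bp for the 10 genes and 189 bp for all regions. Per gene the number of regions ran from 3 at Tnfrsf4 to 53 at Cd28, while the median protein-coding gene had 3.

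The 4 genes with the most regions also had the longest stretches of which they were the nearest gene, at 184 kb for Cd28, 162 kb for Icos, 138 kb for Cd2 and 128 kb for Cd226. Cd28, the receptor for CD80 and CD86, had 53 regions, of which 16 were inside the gene, and 0.749% of genes had as many. Icos, the inducible receptor for ICOSL, had 45 regions with 14 inside, and Cd2, an adhesion receptor for CD48 in the mouse, had 47 with 11 inside. Cd226, an adhesion receptor for PVR and NECTIN2, had 38 regions, and 33 of them lay inside its body of 95279 bp. Slamf6, a receptor that binds itself on neighbouring cells, had 21 regions with 11 inside. Cd40lg had 22 regions, 17 of them beyond its lower-coordinate end. The TNF receptor family genes were sparser: Tnfrsf9 (4-1BB, the receptor for TNFSF9) had 17 regions, Cd27 (the receptor for CD70) 13, Tnfrsf18 (GITR, the receptor for TNFSF18) 6 and Tnfrsf4 (OX40, the receptor for TNFSF4) 3. Per length Tnfrsf18 came first with 5.77 regions per 10 kb of its stretch, followed by Cd27 with 5.10 and Tnfrsf4 with 3.81, and Icos came last with 2.78. Tnfrsf4 and Tnfrsf18 are neighbours 9709 bp apart, which splits the stretch between them. The body of another gene, Sdf4, overlaps that of Tnfrsf4, whose own stretch was 7.88 kb. At Tnfrsf9, 14 of 17 regions (82.4%) were open in all 6 libraries, the highest share of the 10 genes.

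**Figure D1:**
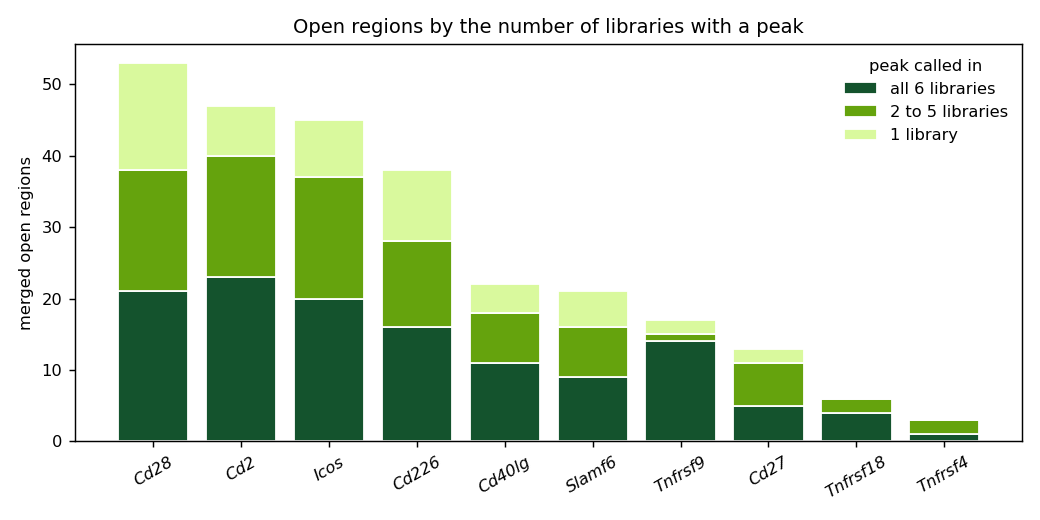
Number of regions at each costimulatory receptor gene (bars, y axis: merged regions, x axis: genes), split by the number of libraries with a peak in the region. Tnfrsf9 had 14 of 17 regions in all 6 libraries, whereas Cd28 had 21 of 53.

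The distance limit cut 1 of the 10 genes. The last Icos peak inside the limit lay 84611 bp from the gene and had a fold of 10.5 in Res-ctrl replicate 1. The first beyond it lay 101485 bp away, with a fold of 14.7 in Res-shFabp7 replicate 2. Beyond 100 kb Icos was still the nearest gene of 79 peaks in 21 regions, of which 7 were open in all 6 libraries. The other 9 genes had no peak beyond the limit.

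More peaks were called at the 10 genes with Res-shFabp7 in raw number, and not per list peak. The libraries held 218, 209 and 206 such peaks with Res-shFabp7 (211 ± 6.25, SD, n = 3), against 192, 159 and 200 with Res-ctrl (184 ± 21.7, SD, n = 3), without overlap. Per 10000 peaks of the list the values were 20.8, 19.8 and 20.6 with Res-shFabp7, against 22.6, 19.4 and 20.8 with Res-ctrl. These overlapped, with means of 20.4 ± 0.564 and 20.9 ± 1.64 (SD, n = 3 each) and a difference of −0.533, less than the spread between replicates. With equal numbers of peaks from every list, the strongest 82153, the difference was 0.0811.

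In raw number, Cd28 and Cd226 were the 2 genes whose groups did not overlap. Cd28 had 38, 41 and 39 peaks with Res-shFabp7 (39.3 ± 1.53, SD, n = 3), against 35, 26 and 33 with Res-ctrl (31.3 ± 4.73, SD, n = 3). Cd226 had 31, 30 and 27 with Res-shFabp7 (29.3 ± 2.08, SD, n = 3), against 26, 23 and 26 with Res-ctrl (25 ± 1.73, SD, n = 3). Every Res-shFabp7 library was above every Res-ctrl library at both genes, as at 11.3% of the 16425 genes with a peak, and 0.536% were separated the other way. Per 10000 list peaks the groups overlapped at all 10 genes, with two-sided exact permutation p of 0.2 to 0.9 and adjusted p of 0.594 to 1, where 3 against 3 libraries allow no p under 0.1. Over all genes 7.37% were separated with Res-shFabp7 higher and 17.1% with it lower, and none had an adjusted p under 0.05 (0.0%), which this design cannot reach. At the other genes raw counts overlapped. Icos had 38, 35 and 31 with Res-shFabp7 against 29, 27 and 35 with Res-ctrl, and Cd2 41, 35 and 40 against 33, 30 and 41. Tnfrsf9 had 19, 16 and 15 peaks with Res-shFabp7, against 16, 16 and 15 with Res-ctrl.

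**Figure D2:**
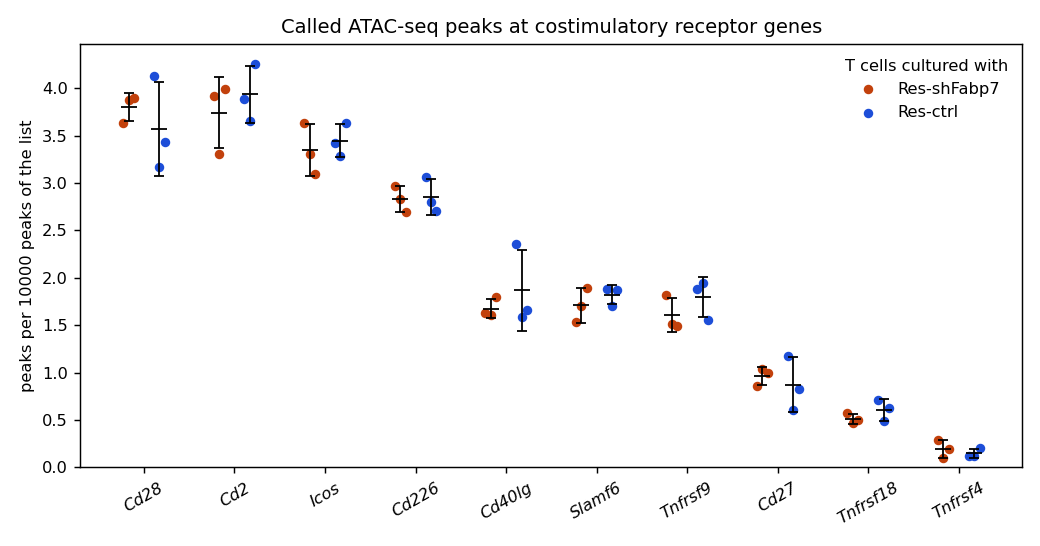
Called peaks per 10000 peaks of the list at each costimulatory receptor gene, Res-shFabp7 left of Res-ctrl (points: libraries, lines: group mean ± SD, n = 3 each). The points of the groups overlap at all 10 genes.

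Regions tied to a single group were few. At the 10 genes 2 of 265 regions (0.755%) had a peak in all 3 Res-shFabp7 libraries and in no Res-ctrl library, against 2.28% of all regions. The reverse held for 0 of 265, against 0.155% of all regions. With equal numbers of peaks from every list, 3 of 226 regions at the 10 genes had the first pattern and 0 the reverse. Over all regions the first pattern then held for 1230, against 3065 with the full lists. The reverse then held for 573 of all regions, against 208 with the full lists. The total of all regions was not counted with equal lists, so no share over all regions stands beside 3 of 226. Regions held by more Res-shFabp7 than Res-ctrl libraries numbered 90 (33.96%, against 38.5% of all regions) and the converse 34 (12.8%, against 11.8%). A region in 3 of 3 against 0 of 3 libraries cannot be tested alone, as Fisher's exact p is then 0.1.

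The Cd28 region of this kind lay inside the gene, at chr1:60753091-60753262. Its fold was 3.55, 4.04 and 3.96 in the Res-shFabp7 libraries, and no peak was called in any Res-ctrl library. The −log10 q there was 5.90, 7.15 and 6.69. At Cd2 the region lay 40353 bp below the lower-coordinate end of the gene, at chr3:101235404-101235619, with a fold of 4.22, 4.33 and 4.17 in the Res-shFabp7 libraries and a −log10 q of 8.76, 9.03 and 8.31. Both still lacked a peak in every Res-ctrl library when equal numbers of peaks were taken from each list. The Cd2 region left the count with a distance limit of 20 kb, and the Cd28 region when a library had to cover 50% of a region.

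Heights were then compared at the 124 regions open in all 6 libraries. In each library the summit pileup was ranked over the 56610 regions open in all 6, and ranks were turned into normal scores, so that a score of 0 is the median region and higher is more open. A difference is Res-shFabp7 minus Res-ctrl in score units. With limma over all 56610 regions, 3.91% passed an adjusted p of 0.05, 2.72% higher and 1.19% lower with Res-shFabp7. At the 10 genes 2 of 124 (1.61%) passed, 1 higher at Cd2 and 1 lower at Tnfrsf9. An unadjusted p under 0.05 was reached by 29 (23.4%, against 19.1% of all), with 21 higher (against 10.3% of all) and 8 lower (against 8.81%). The groups did not overlap with Res-shFabp7 higher at 30 regions (24.2%, against 11.6%) and lower at 7 (5.65%, against 11.2%). The median difference was 0.05 at the 10 genes and −0.01 over all regions. This lean turned with the measure. With pileup 74 of 124 were higher (59.7%, against 47.8% of all regions). When the authors' fold was ranked, 54 of 124 were higher (43.5%, against 46.1% of all regions). The median was then −0.04, against −0.02 for all regions.

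**Figure D3:**
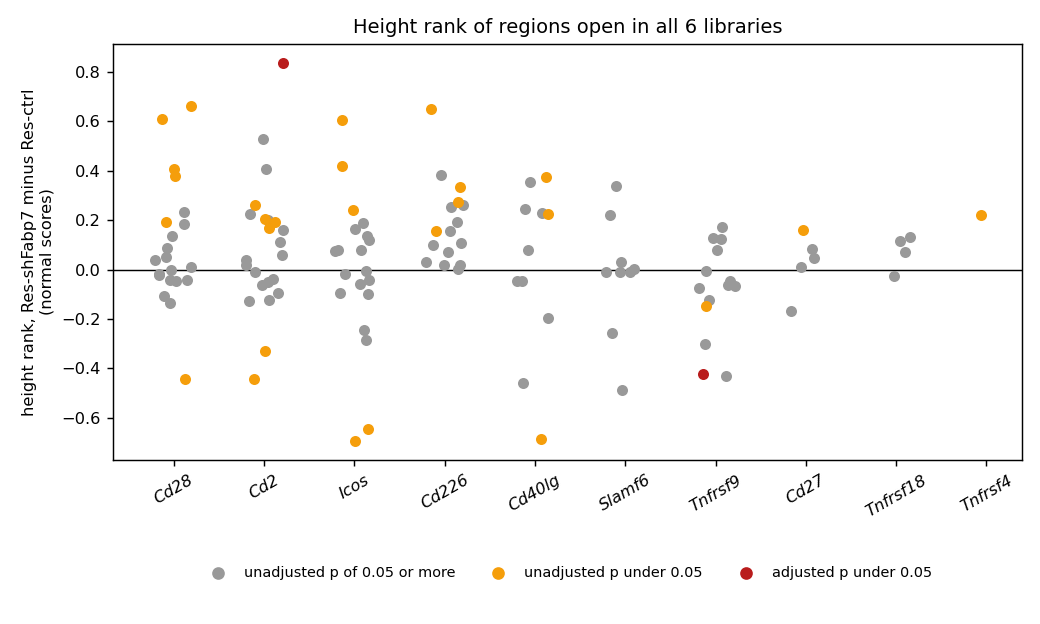
Height rank difference, Res-shFabp7 minus Res-ctrl in normal scores, for each of the 124 regions open in all 6 libraries (points), by gene. The called points are a Cd2 region at 0.84 and a Tnfrsf9 region at −0.42, and the 16 Cd226 points all lie above 0.

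The Cd2 region that passed lay 46.8 kb below the lower-coordinate end of the gene, at chr3:101228937-101229155. Its fold was 7.73, 7.01 and 8.16 with Res-shFabp7, against 5.20, 3.76 and 4.61 with Res-ctrl. Every Res-shFabp7 library was above every Res-ctrl library. By height it stood in the top 63.6%, 67.6% and 60.4% of regions with Res-shFabp7, and in the top 81.8%, 92.9% and 88.6% with Res-ctrl. Its score was −0.36 ± 0.10 with Res-shFabp7, against −1.19 ± 0.28 with Res-ctrl (SD, n = 3 each), a difference of 0.84 ± 0.24 (SE, limma, adjusted p = 0.0359). The Res-ctrl peaks there were weak, with a pileup of 14, 9 and 17, against 34, 28 and 35 with Res-shFabp7. Their −log10 q was 6.36, 2.76 and 6.36. The region was therefore not among the strong regions, with a −log10 q of at least 10 in every library. Among those, 0 regions at the 10 genes passed as higher and 1 as lower. Depth and group cannot be told apart for weak peaks.

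The Tnfrsf9 region that passed lay inside the gene, downstream of both starts, at chr4:150938134-150938403. Fold there was 6.47, 5.85 and 6.96 with Res-shFabp7, against 8.64, 10.4 and 7.17 with Res-ctrl. Every Res-shFabp7 library was below every Res-ctrl library, though Res-ctrl replicate 3 was close to the Res-shFabp7 libraries. The region stood in the top 54.2%, 59.1% and 50.3% with Res-shFabp7, against the top 37.6%, 30.2% and 46.4% with Res-ctrl. Its score was −0.11 ± 0.11 with Res-shFabp7, against 0.31 ± 0.21 with Res-ctrl (SD, n = 3 per group), a difference of −0.42 ± 0.13 (SE, limma, adjusted p = 0.0456).

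Both calls moved with single libraries and with the measure of height. Ranked by the authors' fold, the adjusted p was 0.192 at Cd2 and 0.292 at Tnfrsf9, with the direction kept, and none of the 56610 regions passed although 7771 had an unadjusted p under 0.05. The Cd2 call was lost without Res-shFabp7 replicate 1, 2 or 3 or Res-ctrl replicate 2 (adjusted p of 0.144, 0.0852, 0.152 and 0.102). The Tnfrsf9 call was lost on leaving out any library but Res-ctrl replicate 3 (adjusted p of 0.0709 to 0.253). The differences kept their direction in all settings that gave a value, from 0.70 to 0.98 at Cd2 and from −0.63 to −0.32 at Tnfrsf9.

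**Figure D4:**
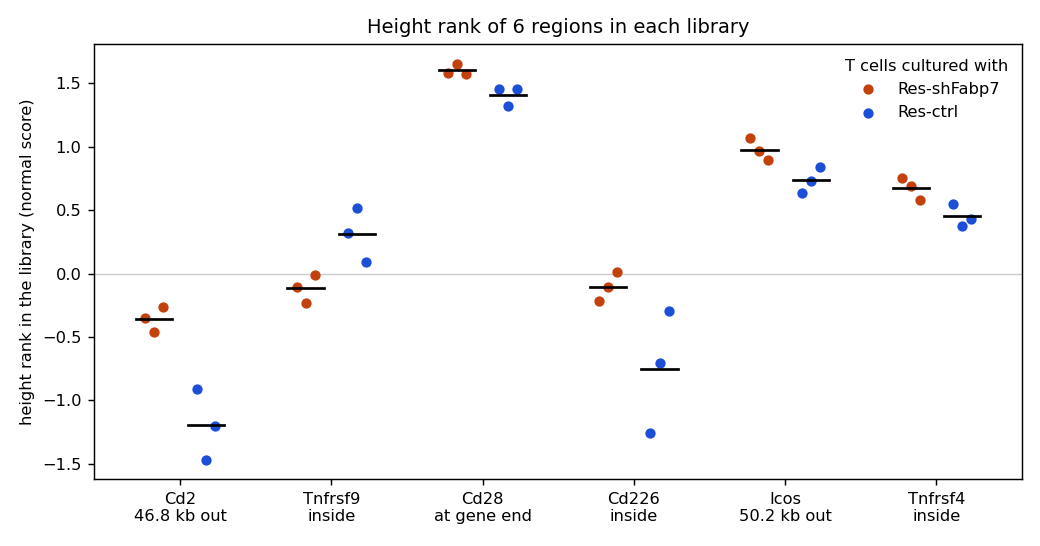
Height scores per library (y axis: normal scores) of 6 regions at costimulatory receptor genes, Res-shFabp7 left of Res-ctrl (points: libraries, lines: group means). Shown are the regions past the test at Cd2 and Tnfrsf9 and regions at Cd28, Cd226, Icos and Tnfrsf4 that did not pass. The Cd2 region lies higher and the inside Tnfrsf9 region lower with Res-shFabp7, without overlap.

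Within the CD28 family, the Cd28 gene edge was among the most open regions. The region at chr1:60746004-60746522, across the lower-coordinate end of Cd28, had a fold of 21.4, 25.2 and 23.4 with Res-shFabp7, against 22.9, 20.2 and 22.7 with Res-ctrl. It ranked in the top 5.67%, 4.91% and 5.82% with Res-shFabp7, against the top 7.30%, 9.35% and 7.31% with Res-ctrl. The ranks did not overlap and the folds did, and the score difference of 0.19 ± 0.07 did not pass (SE, limma, adjusted p = 0.0867). Over Cd28, 12 of 21 regions were higher and 9 lower. Icos had its highest region inside the gene, at chr1:60990150-60990904, in the top 8.46% to 10.1% with Res-shFabp7, against 8.15% to 9.75% with Res-ctrl, with a score difference of 0.00 ± 0.07 (SE, limma, adjusted p = 0.982). The region nearest its lower-coordinate end, 245 bp inside, was low in the ranking, in the top 67.8% to 79.3% with Res-shFabp7, against 59.3% to 71.0% with Res-ctrl. The regions with the lowest adjusted p in each direction, named after their values were seen, did not pass. The higher one, 50.2 kb above the gene at chr1:61050402-61050767, stood in the top 14.3%, 16.7% and 18.5% with Res-shFabp7, against the top 26.3%, 23.3% and 20.1% with Res-ctrl. The groups did not overlap, and the score difference was 0.24 ± 0.08 (SE, limma, adjusted p = 0.0713). It was 0.07 by the authors' fold (adjusted p = 0.866), and without single libraries the adjusted p ran from 0.0352 (Res-ctrl replicate 3 left out) to 0.299 (Res-shFabp7 replicate 1 left out). The lower one, at chr1:61030665-61030803, had a fold of 4.78, 4.68 and 3.23 with Res-shFabp7, against 7.96, 6.80 and 6.46 with Res-ctrl. Those groups did not overlap either, and the score difference was −0.65 ± 0.22 (SE, limma, adjusted p = 0.0839). Of the 20 Icos regions, 10 were higher and 10 lower.

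Among the TNF receptor family genes, no region at Cd27, Tnfrsf4 or Tnfrsf18 passed. Tnfrsf4 had a single region open in all 6 libraries, on its gene start, with a fold of 8.45, 9.10 and 8.02 with Res-shFabp7, against 9.54, 7.60 and 7.75 with Res-ctrl. Its ranks did not overlap, in the top 22.7% to 28.1% with Res-shFabp7, against 29.3% to 35.3% with Res-ctrl, but its folds did. The score difference was 0.22 ± 0.09 (SE, limma, adjusted p = 0.156), and it was negative, −0.11, when the authors' fold was ranked. The highest Tnfrsf18 region was not its start but a 980 bp region 4006 bp before the gene, towards Tnfrsf4, in the top 3.31% to 3.87% with Res-shFabp7, against 3.84% to 5.66% with Res-ctrl. The start of Tnfrsf18 stood in the top 15.4% to 19.2% with Res-shFabp7, against 19.5% to 22.9% with Res-ctrl, with a score difference of 0.13 ± 0.08 (SE, limma, adjusted p = 0.362). The Cd27 start had a fold of 7.48, 7.17 and 7.58 with Res-shFabp7, against 7.06, 8.31 and 8.27 with Res-ctrl, which overlapped. Tnfrsf9 was the TNF receptor family gene with most regions lower, 10 of 14, and the count stayed at 8 to 10 of 14 without any 1 library. Its highest region lay 19191 bp beyond the higher-coordinate end, with a fold of 25.4, 25.1 and 25.4 with Res-shFabp7, against 26.8, 23.8 and 29.7 with Res-ctrl, and its score differed by −0.15 ± 0.07 (SE, limma, adjusted p = 0.248).

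**Figure D5:**
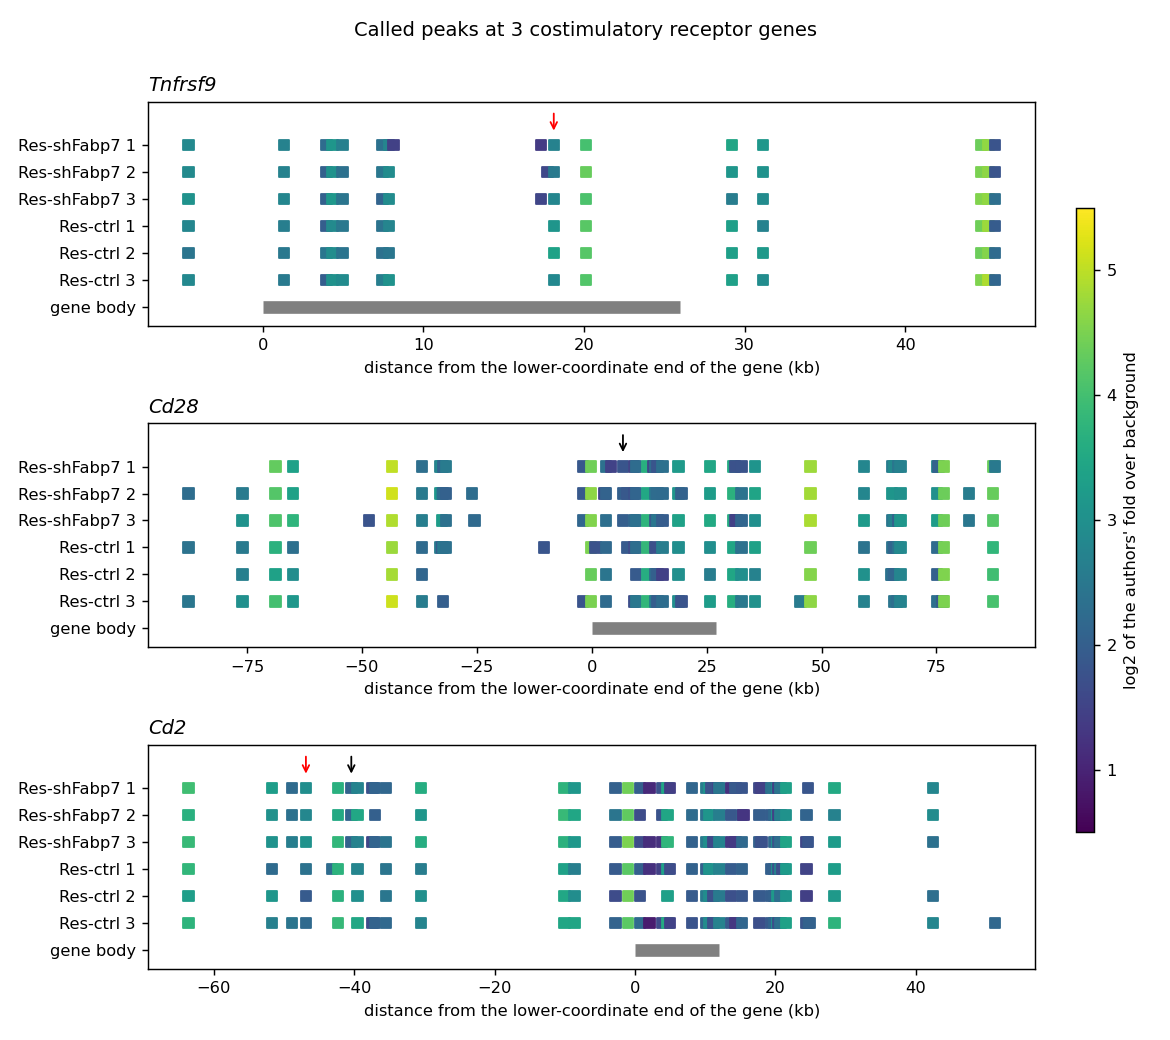
Called peaks per library at Tnfrsf9, Cd28 and Cd2 by distance from the lower-coordinate end of the gene (x axis: kb, colour: log2 of the authors' fold), with the gene body in grey. Red arrows mark the Tnfrsf9 and Cd2 regions past the height rank test, and black arrows the Cd28 and Cd2 regions called in all 3 Res-shFabp7 libraries and no Res-ctrl library.

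Cd40lg, the ligand among the 10, had little signal at its own edge. A peak across its lower-coordinate end was called in 2 Res-shFabp7 libraries and 1 Res-ctrl library, with a fold of 5.58 and 4.10 with Res-shFabp7, against 5.97 with Res-ctrl. Its highest region lay 15598 bp below that end, with a fold of 19.97, 20.03 and 20.7 with Res-shFabp7, against 23.3, 20.5 and 21.1 with Res-ctrl and a score difference of −0.04 ± 0.08 (SE, limma, adjusted p = 0.804). No Cd40lg region passed, and 6 of 11 were higher and 5 lower.

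Of the regions at the 10 genes, the highest by mean rank was at the adhesion receptor Cd2. There a region at chr3:101274607-101275165, 916 bp below the lower-coordinate end, stood in the top 0.9203%, 1.57% and 1.14% with Res-shFabp7, against the top 3.01%, 1.03% and 2.42% with Res-ctrl. Res-ctrl replicate 2 lay within the Res-shFabp7 range, and the difference of 0.21 ± 0.08 did not pass (SE, limma, adjusted p = 0.13). Without Res-ctrl replicate 2 it was 0.34 (adjusted p = 0.007), and without Res-ctrl replicate 1 it was 0.12 (adjusted p = 0.521). Ranked by the authors' fold it was 0.08 (adjusted p = 0.824). The higher-coordinate end of Cd2 had a fold of 5.48, 6.15 and 6.62 with Res-shFabp7, against 6.46, 5.80 and 6.45 with Res-ctrl, which overlapped. Slamf6 had 4 of 9 regions higher and none with an unadjusted p under 0.05. Peaks on its start had a fold of 5.60, 6.12 and 6.05 with Res-shFabp7, against 6.25, 5.88 and 5.09 with Res-ctrl, which overlapped. Their summits lay 222, 222 and 8 bases after the gene start with Res-shFabp7, against 49, 49 and 54 bases before it with Res-ctrl. The folds were thus not read at the same position.

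All 16 Cd226 regions open in every library were higher with Res-shFabp7 by pileup rank (against 47.8% of all regions), by a median of 0.16. None of the 16 passed with pileup rank over all libraries. With quantile-normalised log2 pileup 2 of the 16 passed (adjusted p of 0.0455 and 0.0485). By the authors' fold 10 of 16 were higher (62.5%, against 46.1% of all regions). By pileup rank 13 to 16 were higher without any 1 library. The nearest to passing, named after its values were seen, lay inside the gene, at chr18:89200617-89200913, with a fold of 5.75, 6.69 and 7.34 with Res-shFabp7, against 3.07, 4.16 and 5.96 with Res-ctrl. By fold Res-ctrl replicate 3 was within the Res-shFabp7 range, and by rank the groups did not overlap. Its score difference was 0.65 ± 0.20 (SE, limma, adjusted p = 0.0545). Leaving out single libraries gave differences of 0.40 (without Res-ctrl replicate 1, adjusted p = 0.283) to 0.88 (without Res-ctrl replicate 3, adjusted p = 0.0113). Regions of a gene share their libraries and are no replicates of each other. The region across the lower-coordinate end of Cd226 had a fold of 20.9, 23.3 and 22.4 with Res-shFabp7, against 19.8, 17.4 and 20.3 with Res-ctrl, without overlap, while its ranks overlapped (difference 0.10 ± 0.11, SE, limma, adjusted p = 0.662).

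The ligands of these receptors had regions past the test in 1 direction. Of 55 regions open in all 6 libraries at 11 ligand genes, 8 (14.5%, against 3.91% of all regions) passed, all higher with Res-shFabp7. Of these, 3 were at Tnfsf4, 2 at Cd86, 2 at Cd48 and 1 at Tnfsf9, the last outside the rule for named genes and named after its values were seen. The gene lists were chosen with earlier results of these data known, so this share is not an independent result. Regions of the same gene are no replicates of each other. The Tnfsf4 region at chr1:161340041-161340349 had a fold of 14.8, 14.4 and 12.2 with Res-shFabp7, against 4.68, 6.22 and 5.98 with Res-ctrl, without overlap, and a score difference of 1.302 ± 0.31 (SE, limma, adjusted p = 0.0116). At Cd70 1 region, of fold 6.91, 4.82 and 5.61 with Res-shFabp7, had no peak with Res-ctrl. Without any 1 library 1 to 7 ligand regions passed, the fewest without Res-shFabp7 replicate 1, and ranking the authors' fold left 0, with 9 higher and 3 lower at an unadjusted p under 0.05. B cells also express several of these ligands. The 6 B cell markers had 1.70 to 2.199 peaks per 10000 list peaks with Res-shFabp7, against 1.34 to 1.66 with Res-ctrl, without overlap. Of their 8 regions open in all 6 libraries, 3 (37.5%, against 3.91% of all regions) passed as higher, all at Pax5. Without any 1 library 1 to 2 of the 8 passed as higher, and ranking the authors' fold left 0. Ms4a1 was without a region in every library. Epithelial tumour markers had 1.70 to 1.80 with Res-shFabp7, against 1.25 to 1.58 with Res-ctrl, and myeloid markers 2.68 to 3.40 and 2.803 to 3.18. Lower with Res-shFabp7, without overlap, were CD8 T cell markers (18.2 to 20.1, against 20.7 to 22.2) and CD4 and regulatory T cell markers (5.29 to 5.74, against 6.44 to 6.72). So were the signalling genes (42.2 to 46.1, against 46.6 to 47.7) and related receptors (19.9 to 20.8, against 22.6 to 23.2) described below. Over all single genes 7.37% were separated as higher and 17.1% as lower, which is a share of genes and not of gene lists. The peak lists were longer with Res-shFabp7, which lowers these rates even where raw numbers of peaks are equal. A lower rate here is therefore not a lower number of peaks. The part of B, tumour or myeloid cells in the ligand result was not tested.

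Genes of the signalling pathways and related receptors gave shares closer to the 3.91% of all regions. At 16 signalling genes 9 of 291 regions passed the test as higher and 2 as lower (3.78%). Of their 583 regions, 7 (1.20%, against 2.28% of all regions) had peaks in all 3 Res-shFabp7 libraries and no Res-ctrl library, and 2 had the reverse (0.343%, against 0.155%). Prkcq, the protein kinase C theta of CD28 signalling, had 57 regions open in all 6 libraries, of which 2 passed as higher. At Prkcq 3 further regions had peaks in all 3 Res-shFabp7 libraries alone. Fyn, a kinase that binds CD2, had 45 regions open in all 6 libraries, of which 1 passed as higher. At 16 related receptors 5 of 137 regions passed as higher and 3 as lower (5.84%). None passed among the 19 of Ctla4, the inhibitory receptor between Cd28 and Icos. Among the 13 of Tigit, the inhibitory receptor that shares its ligands with Cd226, 2 passed as lower. Without any 1 library these counts ran from 1 to 11 higher and 0 to 2 lower at the signalling genes, and from 0 to 6 higher and 1 to 4 lower at the related receptors. The fewest higher calls came without Res-shFabp7 replicate 1, and the authors' fold left 0 in both lists.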

How the data were processed

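ATAC-seq was run on 6 libraries of spleen CD8+ T cells, 3 per group, with paired reads of 76 bases and 35 to 75 M read pairs each, per the labels' protocols. The sources used here do not give the depth of single libraries, and a relative depth was read from the background of each list. The submitters' processing notes name MACS2 2.2.7.1, Bowtie 1.1.2, Trim Galore 0.6.5 and cutadapt 2.8, with the mm10 build. Transposase shift, duplicate handling and MACS2 mode (not given in the sources used here) affect peak edges and heights.

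The authors deposited 1 peak list per library, called per library at a q of 0.05, with the pileup (coverage signal) at each summit, the fold as a ratio to local background, and the p-value and q-value as −log10. These are the authors' own values. Starts count from 0, as inferred from summits and ends, and are given counted from 1.

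Peaks overlapping by at least 1 bp were merged into regions, and gene bodies came from RefSeq GRCm38.p6, the primary assembly of mm10. Height ranks were tested with limma 3.58.1 (R 4.3.3, mean-variance trend, Benjamini-Hochberg over all regions) and peaks per gene by exact permutation, after the scripts were tested on simulated data. P-values measure the spread among these libraries. Every region named is, for its gene, the highest-ranked one open in all 6 libraries, the one at a gene start or end, one called with a single group, or one past the test, unless stated otherwise. Strand, exons, introns and promoter sequence of Cd28, Icos, Cd40lg, Cd2 and Cd226 are not used here. The genes and lists were chosen with earlier results of these data known, and the motifs after the promoter sequences had been seen.

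Alternatives were other q thresholds, equal list lengths, a 20 kb limit, merging over gaps, summit windows, a minimum cover, omission of each library in turn, ranks of the authors' fold, quantile-normalised log2 pileup, strong regions only and a replicate block. Height rank directions per gene and calls at the other gene lists under these alternatives were added after seeing the data. The mean-variance trend was added to the planned test because, without it, few of the changes in simulated data were recovered.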

Additional observations from a re-analysis of the deposited data

How the results depend on the processing

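The counts at the 10 genes are small and move with the settings. Regions called only with Res-shFabp7 numbered 2 of 265 (3065 over all regions), against 1 of 191 with a 20 kb limit, which leaves the 3065 unchanged. They numbered 7 where a library had to cover 50% of a region (3777 over all regions). Without 1 library they numbered 3 to 8 (3896 to 6987 over all regions). Leaving out a library loosens the rule for every region, since 1 group then has 2 libraries. The total of all regions was not counted without a library, so no shares stand beside those numbers. Regions called only with Res-ctrl numbered 0 (208 over all regions), against 1 with windows of 200 bp around summits (471 over all regions). Without 1 library they numbered 0 to 1 (416 to 758 over all regions). Genes whose groups did not overlap per 10000 list peaks numbered 0, against 2 of 10 with a 20 kb limit (Cd28 and Cd40lg) and 0 to 2 without 1 library. With all libraries and the 100 kb limit, 7.37% of all genes were separated as higher and 17.1% as lower. The share over all genes was not computed under the other settings, and separation is easier with 2 libraries in a group. The difference in peaks per 10000 list peaks was −1.31 to 0.324 without 1 library. Height rank calls at the 10 genes numbered 2, against 0 with the authors' fold, 4 with quantile-normalised log2 pileup, 1 over strong regions only and 0 to 5 without 1 library. Over all regions 2212 passed, against 0 with the authors' fold, 2565 with quantile-normalised pileup, 1756 of 36751 strong regions and 444 to 2829 without 1 library, the fewest without Res-shFabp7 replicate 1. With the authors' fold, higher regions numbered 54 of 124 at the 10 genes (74 with pileup), 0 of 5 at Cd27 (4 with pileup), 1 of 4 at Tnfrsf18 (3 with pileup) and 10 of 16 at Cd226 (16 with pileup). Over all regions 46.1% were higher with the fold and 47.8% with pileup. Of the regions with an unadjusted p under 0.05, the difference reversed at the highest Cd27 region (−0.0636), the Tnfrsf4 start (−0.108) and a Cd226 region 16685 bp below the gene (−0.0701). The causes were not tested.

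Same-numbered libraries deviated together with correlations of −0.0245, 0.01501 and −0.0158, so the numbers were not taken as pairs. With the replicate block 3 regions at the 10 genes and 2678 of all regions passed, the added one being the Cd226 region nearest to passing (adjusted p = 0.0322). Unknown depth limits what a missing peak shows.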

Other observations

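At Cd28 and Icos the region of highest mean fold was not the region of highest pileup rank. These were chosen after their values were seen. At Cd28 the region at chr1:60702662-60703137, 43582 bp below the lower-coordinate end, had a fold of 32.3, 35.3 and 29.8 with Res-shFabp7 and 26.9, 28.3 and 34.8 with Res-ctrl, which overlapped. At Icos the region at chr1:61068022-61068483, 67985 bp above the higher-coordinate end, had a fold of 26.5, 25.9 and 28.8 with Res-shFabp7 and 28.0, 22.4 and 30.1 with Res-ctrl, which overlapped too. The height score differed by −0.02 at the Cd28 region (limma, adjusted p = 0.933) and by −0.06 at the Icos region (limma, adjusted p = 0.795).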
